A study of Mus musculus with 6 samples.

Results

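Dazl, Mael, Asz1 and Taf7l are 4 genes of the germ line whose promoters carried DNA methylation in haploid embryonic stem cell lines and almost none in round spermatids. Mael was the weakest case, with 1 line below the spermatids by summed reads and 1 position at 26.3% in the spermatids. The 4 genes were selected on their measured promoter levels, so the gap between lines and spermatids is described here and not tested. They are 4 of 9832 genes with a measured promoter. Each gene was examined at all cytosine positions within 2 kb of its transcription start (the promoter window) and from there to the end of the gene (the gene body), where all 6 libraries had at least 10 reads. That left 79 positions of the 233019 measured in all 6 libraries, 75 in promoter windows and 4 in gene bodies. All 4 gene body positions lie in Asz1.

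The assay was reduced representation bisulfite sequencing, in which the enzyme MspI cuts at CCGG and bisulfite then converts unmethylated cytosines, so that the share of methylated reads can be counted at single positions. The libraries came from C57BL/6 mouse material: 2 wild-type androgenetic haploid embryonic stem cell lines (WT, replicates 1 and 2, passages 31 and 18), 3 lines labelled as double knockouts (DKO, replicates 1, 2 and 3, passages 32, 31 and 29) and 1 round spermatid sample from testis, the control. Androgenetic haploid cells hold a single, paternal chromosome set. All 5 lines grew on feeder cells in medium with 2i, inhibitors that hold stem cells undifferentiated and are known for low DNA methylation. In the DKO lines the labels mark the H19 DMR and the IG-DMR as deleted, which control paternally methylated imprinted domains. Each line is 1 library. WT replicate 1 shares the name OG3 with DKO replicate 2 in the titles, and WT replicate 2 shares AGH-2 with DKO replicate 3. Whether the lines came from separate embryos is not stated, and p-values then cover only the spread among these libraries.

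The lines had 197728785 to 255726544 reads over cytosines in total and the round spermatids 293920118, and median depth at the common positions was 364 to 503 reads. Over the common positions the 2 WT lines averaged 8.09% and 4.13%, the 3 DKO lines 5.12%, 7.24% and 5.07%, and the round spermatids 22.4%. Lists of 2 or 3 values follow the order of the replicate numbers throughout. In the 2 kb to 4 kb before the H19 start, the region of the H19 DMR, the WT lines had 22 and 23 reads and the 3 DKO lines none, and round spermatids also had none. In the 10 kb to 16 kb before the Meg3 start, the region of the IG-DMR, WT replicate 1 had 196 reads and DKO replicate 3 had 62, and the other lines had none. None of these reads of the lines was methylated. Reads this few are a weak check of the deletion labels, and the ends of the deletions are not given in the labels. Maternally methylated imprinted promoters, which cells with a maternal genome (feeders, testis somatic cells) would carry on a methylated copy, had summed levels of 0.0865% to 0.586% in the lines and 0.194% in round spermatids over 9 of 13 listed genes. Paternally methylated genes, with 2 of 3 measured (Rasgrf1 and Zdbf2), had 0.0213% to 0.312% in the lines and 0.0197% in round spermatids. Paternal methylation was thus not seen in these promoter windows, in round spermatids either. The windows therefore cannot show whether the lines kept or lost it. Promoters of 7 housekeeping genes averaged 0.0401% over the lines against 0.0829% in round spermatids, and those of 5 pluripotency genes 0.262% against 1.48%, with Klf4 at 7.31% in round spermatids. RNA was not measured, so the cell types could not be checked by expression.

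Germline genes of this kind are silent in somatic cells. Their promoters are CpG-rich, stay unmethylated in male germ cells, and gain methylation in the embryo around implantation through the enzymes DNMT3A and DNMT3B, which holds the genes off. Dazl encodes an RNA-binding protein that controls translation in germ cells. Mael (maelstrom) and Asz1 (GASZ) are proteins of the piRNA pathway, which silences transposons in the male germ line, and Asz1 sits on germ cell mitochondria. Taf7l is the X-linked germ cell paralog of the general transcription factor subunit Taf7.

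The promoter sequences show where the measured CpG dinucleotides lie relative to the start. Each runs from 230 bases before to 30 bases from the start on the minus strand, on which all 4 genes lie, and comes from RefSeq (GRCm38.p6, the assembly of mm10). Capitals mark CpGs measured in all 6 libraries. In mm10, the stretch is chr17:50293591-50293850 for Dazl, chr1:166238715-166238974 for Mael, chr6:18109032-18109291 for Asz1 and chrX:134476461-134476720 for Taf7l.
Dazl: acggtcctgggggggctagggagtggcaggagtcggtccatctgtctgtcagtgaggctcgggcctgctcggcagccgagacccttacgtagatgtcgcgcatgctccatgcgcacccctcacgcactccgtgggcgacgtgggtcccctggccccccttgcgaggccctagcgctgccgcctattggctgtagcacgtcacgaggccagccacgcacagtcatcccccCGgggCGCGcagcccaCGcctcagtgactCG
Mael: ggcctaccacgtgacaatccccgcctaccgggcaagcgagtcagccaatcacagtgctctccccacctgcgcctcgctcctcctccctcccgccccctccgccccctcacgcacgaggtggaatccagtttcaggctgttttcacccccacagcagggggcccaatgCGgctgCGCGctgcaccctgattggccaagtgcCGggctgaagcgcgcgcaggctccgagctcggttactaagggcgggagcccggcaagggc
Asz1: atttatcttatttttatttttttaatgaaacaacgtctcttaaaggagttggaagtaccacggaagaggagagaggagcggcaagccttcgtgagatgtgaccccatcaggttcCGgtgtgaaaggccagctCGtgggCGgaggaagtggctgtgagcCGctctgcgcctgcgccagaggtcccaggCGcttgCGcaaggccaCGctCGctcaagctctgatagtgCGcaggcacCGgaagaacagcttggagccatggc
Taf7l: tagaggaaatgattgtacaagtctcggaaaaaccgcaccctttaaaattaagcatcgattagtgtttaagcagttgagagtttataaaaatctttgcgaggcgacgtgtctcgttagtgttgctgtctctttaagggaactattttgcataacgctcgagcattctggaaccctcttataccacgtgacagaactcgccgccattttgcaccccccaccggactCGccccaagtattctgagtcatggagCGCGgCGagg

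The capitals cover 5 CpGs of Dazl, 4 of Mael, 10 of Asz1 and 4 of Taf7l, and of these 5, 1, 9 and 4 reached a level of 10% in at least 1 line. The 300 bases that RefSeq gives around each start hold 28 CpGs in Dazl, 24 in Mael and 17 each in Asz1 and Taf7l, against a median of 7 over 32585 promoters. The MspI site CCGG occurs 1 time in Dazl, 4 times in Mael, 2 times in Asz1 and 1 time in Taf7l, and 53.1% of all promoters hold it. The E-box CACGTG, which reads the same on both strands, occurs 223 bases before the Mael start and 49 bases before the Taf7l start, is not in the Dazl and Asz1 windows, and is held by 7.20% of all promoters. The motif TTCCCGC was in none of the 4 windows on either strand, and 4.63% of promoters hold it. All 27 member positions that fall in these 300 bases were CpGs.

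Promoter levels, taken from reads summed over the window, differed widely between lines. The Dazl promoter (transcription start at 50293620 on chromosome 17, gene 50279393 to 50293620) had 25 positions. The WT lines had levels of 21.1% and 4.22%, the DKO lines 5.64%, 6.60% and 13.6%, and round spermatids 0.0260% (95% Wilson interval 0.0155% to 0.0436%, counting error only). Every line lay above the spermatids, and the mean was 10.2% ± 7.05 (SD, n = 5). WT replicate 1 stood highest, also when positions were weighted equally (21.0%, against 2.66% in WT replicate 2 and 5.84%, 8.34% and 7.95% in the DKO lines). The order of the DKO lines depends on the weighting, since DKO replicate 3 led them by summed reads and DKO replicate 2 by the mean of positions.

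Mael (start at 166238744 on chromosome 1, gene 166201385 to 166238744) had 23 promoter positions and the lowest mean of the 4 genes. The WT lines were at 1.41% and 8.37%, the DKO lines at 0.0246%, 7.99% and 1.81%, and round spermatids at 0.652% (interval 0.570% to 0.745%). The spermatid level came mostly from 1 position, 196 bp downstream, with 26.3% on 761 reads. At each of the other common positions round spermatids had at most 0.465%. The mean of the lines was 3.92% ± 3.95 (SD, n = 5), an SD as large as the mean. DKO replicate 1 lay below the spermatids, so by summed reads at these 23 positions 4 of the 5 lines were above round spermatids. With positions weighted equally, DKO replicates 1 and 3 both lay below, at 0.0457% and 0.547% against 1.19% in round spermatids. The WT lines were then at 5.17% and 4.29% and DKO replicate 2 at 6.14%. Farther upstream, where round spermatids had no reads, DKO replicate 1 had 64.5% on 62 reads at 202 bp, WT replicate 1 had 44.8% on 29 reads there, and at 194 bp DKO replicate 3 had 90.2% on 41 reads and DKO replicate 1 had 0% on 74.

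Asz1 (start at 18109061 on chromosome 6, gene 18050964 to 18109061) had 10 promoter positions. Levels were 6.51% and 11.0% for the WT lines, 12.9%, 8.98% and 26.7% for the DKO lines, and 0.0219% for round spermatids (interval 0.00936% to 0.0513%). The mean was 13.2% ± 7.91 (SD, n = 5), and DKO replicate 3 stood highest. WT replicate 1, highest at Dazl and in the mean over all common positions, was the lowest line here. Both places held with positions weighted equally, at 25.4% for DKO replicate 3 and 4.88% for WT replicate 1.

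Taf7l (start at 134476490 on chromosome X, gene 134460116 to 134476505) had 17 promoter positions. The WT lines showed 15.4% and 4.27% methylation and the DKO lines 5.54%, 7.53% and 7.25%, with a mean of 7.99% ± 4.34 (SD, n = 5). In windows of 1 kb and 500 bp, without the distant positions, the lines lay 19.5 and 23.3 points above round spermatids, and 16.9 points with a minimum of 30 reads. No methylated read was seen among 1613 in round spermatids, summed over the 17 positions. That allows a level of up to 0.186% by 3 counts, or 0.238% by the Wilson interval. Neighbouring positions share reads, so there were fewer separate reads and both limits are too tight. Taf7l was the most thinly covered promoter, with 50.1 reads per position in WT replicate 1 against 174.9 to 414 in the other lines. The order of the lines depends on this uneven depth. With positions weighted equally the WT lines were at 7.63% and 4.47% and the DKO lines at 7.78%, 9.56% and 16.9%, so DKO replicate 3 and not WT replicate 1 was highest, as it was within 250 bp of the start (41.1% against 18.5%).

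**Figure D1:**
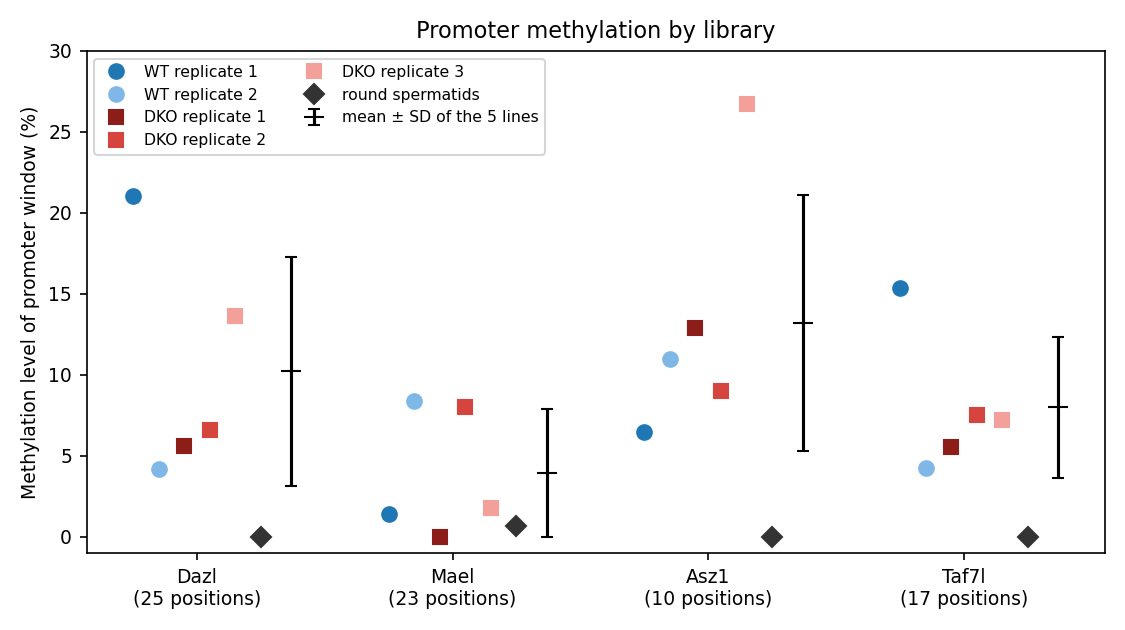
Methylation level (percent of methylated reads) of the Dazl, Mael, Asz1 and Taf7l promoter windows in each library, with the mean and SD of the 5 lines as the bar beside them. WT replicate 1 is the highest line at Dazl (21.1%) and DKO replicate 3 at Asz1 (26.7%). At Taf7l the high point of WT replicate 1 (15.4%) holds for summed reads only, since DKO replicate 3 is highest with positions weighted equally (16.9%). The round spermatid library sits at or near 0 except at Mael (0.652%, mostly from 1 position).

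Against the other promoters, the mean of the lines stood at percentile 94.98 for Dazl, 90.8 for Mael, 96.2 for Asz1 and 93.9 for Taf7l among 11671 promoter windows, whose median was 0.0412%. By a rule of size (every line above round spermatids and a mean gap of at least 5 points), Dazl, Asz1 and Taf7l counted as lower in round spermatids and Mael, with a gap of 3.27 points, did not. The background is 1.2% of windows lower in round spermatids and 6.67% higher by the mirrored rule, and nothing is read from the members' count because this contrast chose them. Of the 10143 windows under 1% in round spermatids, 265 (2.61%) averaged 5% or more over the lines.

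Position by position, methylation was patchy. Of the 75 promoter positions, 41 reached 10% in at least 1 line: 14 of 25 in Dazl, 10 of 23 in Mael, 9 of 10 in Asz1 and 8 of 17 in Taf7l. For comparison, 4.56% of the 113022 promoter positions under 10% in round spermatids had a line at 10% or more, a share from which nothing is read because these levels chose the genes. Of the 41, 18 reached it in exactly 1 line, 9 in 2 lines, 9 in 3 lines, 5 in 4 lines and 0 in all 5 lines. The lines had 20 (WT replicate 1), 15 (WT replicate 2), 10, 21 and 17 (DKO replicates 1 to 3) such positions, and round spermatids had 1. Of the 375 values (75 positions in 5 lines), 275 were under 1%, 17 between 1% and 10%, 70 between 10% and 50%, and 13 at 50% or more. A read spans several cytosines, so neighbouring positions share reads and are not independent, and the number of original DNA molecules behind the reads is not given in the sources used here.

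In Dazl the methylated stretch among the common positions ran from 1 bp before to 153 bp after the start, and no common position lay farther upstream. At 134, 143, 161 and 171 bp upstream DKO replicate 2 had 100% on 13 reads each, and at 154 bp 0% on 13 reads. The other libraries had no reads at these upstream positions. At 28 bp downstream the WT lines had 82.1% and 5.29%, the DKO lines 43.3%, 15.5% and 38.8%, and round spermatids 0. At 43 bp the WT lines had 82.1% and 11.0% and the DKO lines 40.9%, 31.9% and 0%, and at 76 bp these were 28.5% and 21.7%, then 19.5%, 36.0% and 0%. DKO replicate 3, which was at 0 at these last 2 positions, had its methylation farther in, with 52.9%, 53.2% and 53.3% at 97, 102 and 117 bp. At 117 bp WT replicate 1 had 71.3% and the other 3 lines were at 0. The 6 positions from 512 to 548 bp downstream had a mean of 0.0247% in the lines. WT replicate 1 reached 10% at 12 positions and DKO replicate 3 at 4, and they shared 28, 102 and 117 bp.

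The Mael positions were mostly methylated in 1 line at a time. At 138 bp downstream WT replicate 2 had 31.4% and DKO replicate 2 had 35.3%, with 0 in the other lines, and at 120 bp WT replicate 2 had 17.5% and DKO replicate 3 had 12.3%. WT replicate 2 alone had 48.8% at 145 bp, and DKO replicate 2 alone had 35.3% at 100 bp and 20.1% at each of 168, 179 and 196 bp. The 196 bp position was the only promoter position methylated in round spermatids, at 26.3%. WT replicate 1 had 91.3% at 326 bp, on 23 reads, where the other lines were at 0. DKO replicate 1 had a highest level of 0.606% over these 23 positions.

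In Asz1 the 10 positions lie between 116 bp before and 6 bp after the start, and DKO replicate 3 reached 10% at 7 of them. At 116 bp upstream DKO replicates 1 and 3 had 42.9% and 58.7%, WT replicate 2 had 0.971% and the other 2 lines were at 0. At 98 bp upstream the WT lines had 0% and 21.4%, and the DKO lines had 9.95%, 43.0% and 35.6%. WT replicate 1 was methylated at a single position, 92 bp upstream, at 48.7%. At 42 bp upstream WT replicate 2 and DKO replicate 3 each had 35.5%, DKO replicates 1 and 2 had 8.45% and 5.20%, and WT replicate 1 was at 0. The window level of 6.51% in WT replicate 1 thus came from 1 CpG, while that of DKO replicate 3 was spread over the promoter.

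In Taf7l, among the 17 positions measured in all libraries, the 7 within 250 bp of the start carried nearly all of the methylation. At 25 bp downstream the WT lines had 30.3% and 17.6%, the DKO lines 14.8%, 37.5% and 0%, and round spermatids 0. Only 3 bp before it, at 22 bp, both WT lines were at 0 and the DKO lines had 75.4%, 25.7% and 36.6%. At 118 bp DKO replicate 3 had 83.3%, WT replicates 1 and 2 had 34.7% and 12.0%, DKO replicate 1 had 8.93% and DKO replicate 2 was at 0. The 10 positions from 984 to 1475 bp downstream had at most 2.13% in any line except at 1427 bp, where DKO replicate 1 had 24.2%.

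**Figure D2:**
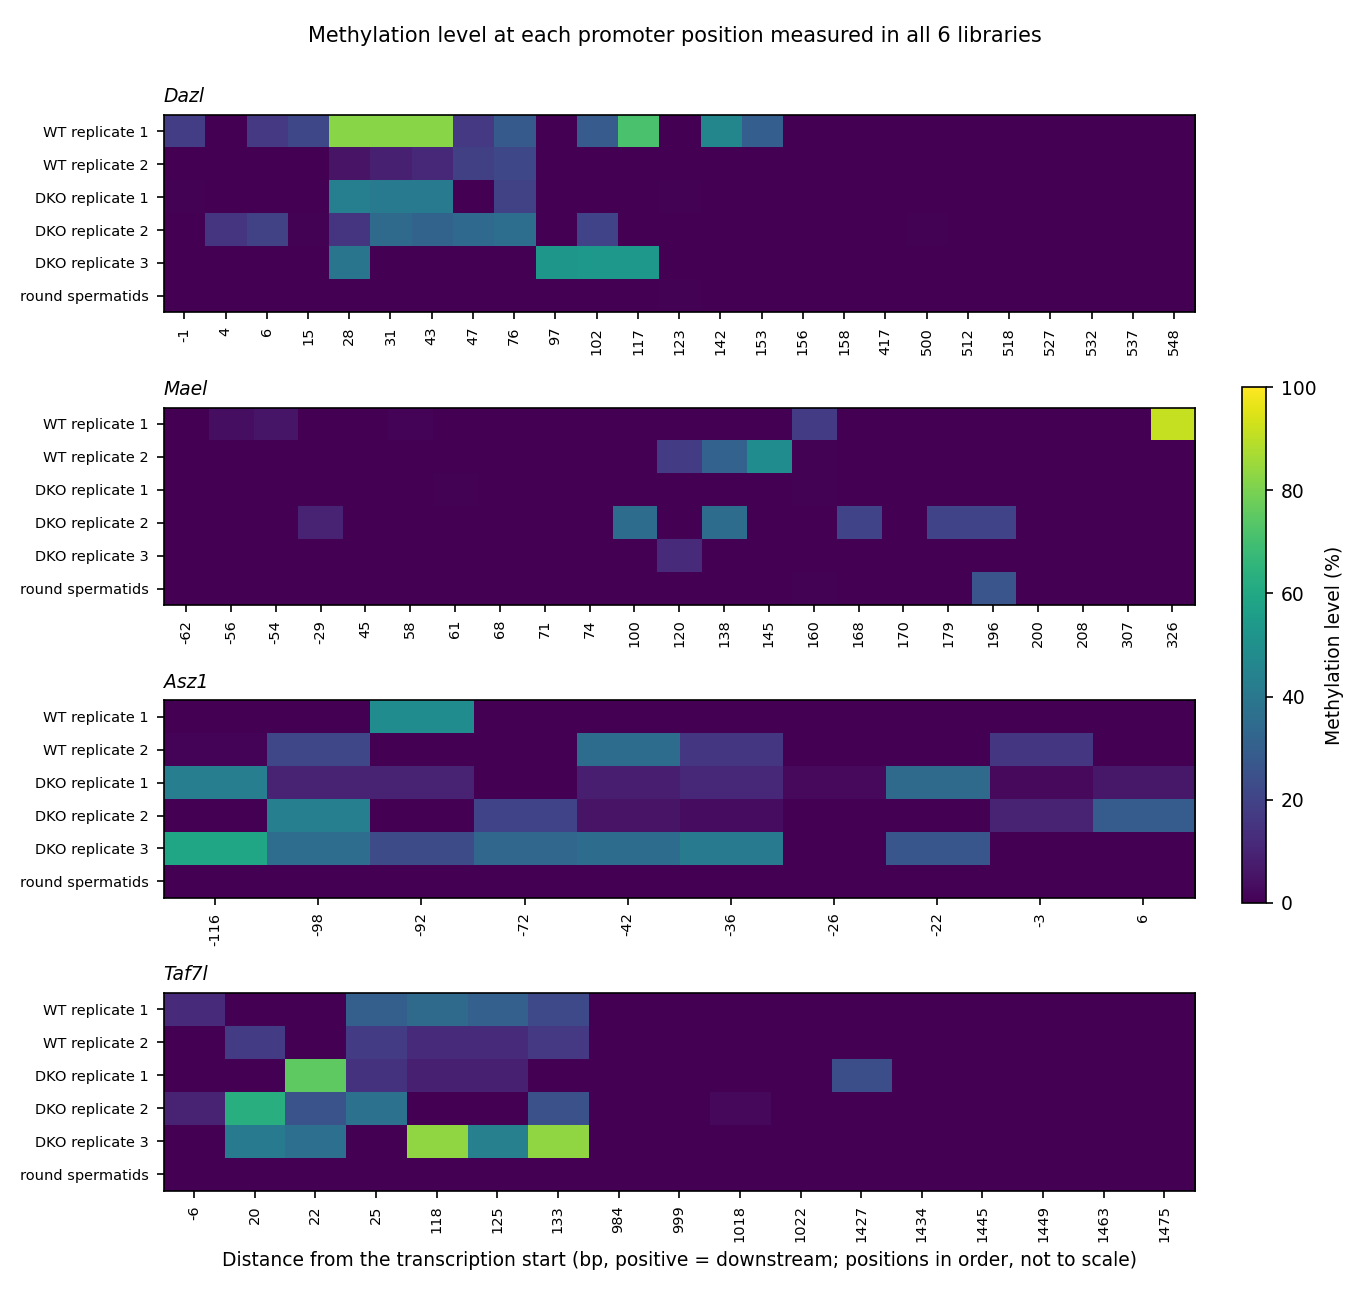
Methylation level (colour, percent) at each promoter position measured in all 6 libraries, with 1 row per library and positions labelled by their distance from the start in bp, in order and not to scale. No position reaches 10% in all 5 lines, DKO replicate 1 is dark across Mael, and the only bright round spermatid cell is the Mael position at 196 bp (26.3%).

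Among positions measured in all 6 libraries, methylation lay mostly near the start. Of the 41 positions that reached 10% in a line, 39 lay within 250 bp of it, as do 55 of the 75 measured positions. Averaging positions, the mean level of the lines within 250 bp was 13.4% ± 10.3 (SD, n = 5) over 17 Dazl positions, 2.68% ± 2.90 (SD, n = 5) over 21 Mael positions, 12.6% ± 7.75 (SD, n = 5) over 10 Asz1 positions and 21.8% ± 11.7 (SD, n = 5) over 7 Taf7l positions. The 4 genes together had 10.2% ± 3.57 (SD, n = 5) over 55 positions within 250 bp, 4.60% ± 10.2 over 4 positions from 250 to 500 bp, 0.0186% ± 0.0201 over 8 positions from 500 to 1000 bp and 0.668% ± 1.33 over 8 positions from 1000 to 2000 bp. All promoter windows of the series ran the other way, from 0.430% ± 0.148 (61347 positions) through 0.680% ± 0.228 and 1.49% ± 0.489 to 4.72% ± 1.47 (9716 positions) in the same bins. At those of their positions under 1% in round spermatids the rise was smaller, from 0.267% within 250 bp to 1.77% beyond 1000 bp. Promoter levels chose the 4 genes, so nothing is read from their higher level near the start. The members' far positions are few and come from Dazl and Taf7l alone beyond 500 bp and from Taf7l alone beyond 1000 bp. Positions that some libraries did not cover showed methylation farther out. In Taf7l, DKO replicate 2 had 76.0%, 79.8%, 68.7% and 68.7% at 747, 755, 759 and 792 bp downstream on 321 to 361 reads, and DKO replicate 1 had 42.7% on 316 reads at 781 bp, where DKO replicate 2 was at 0. WT replicate 1 had 23.8%, 14.8% and 14.8% at 1591, 1612 and 1614 bp on 223 to 359 reads, with 0 in WT replicate 2 and DKO replicates 1 and 2. In Dazl, WT replicate 1 had 26.8% and 23.4% at 461 and 472 bp on 355 reads each, also with 0 in those 3 lines. The fall with distance therefore describes the common positions only.

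**Figure D3:**
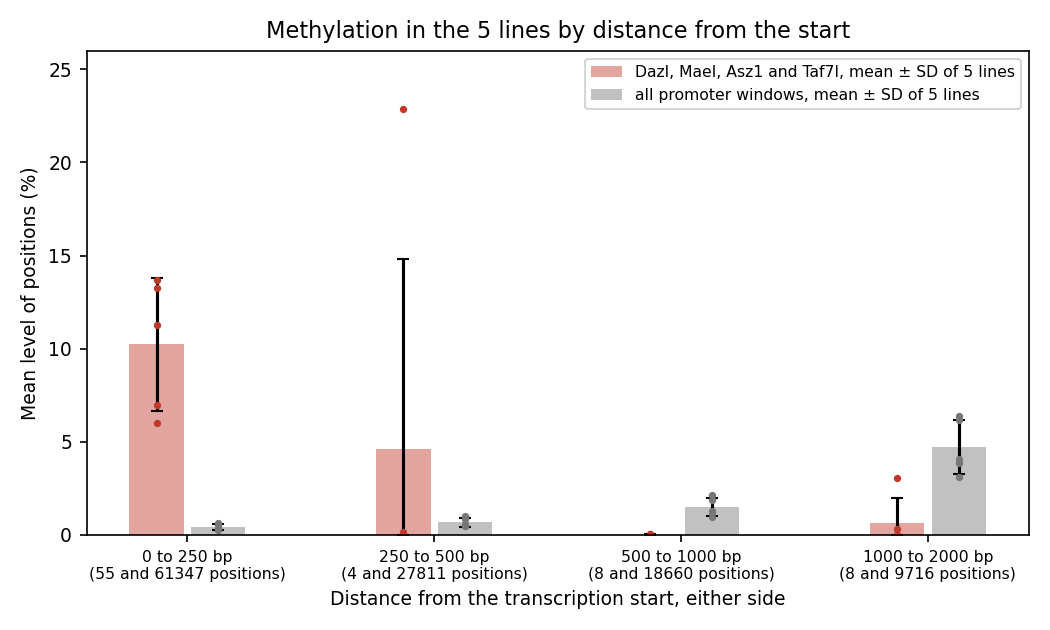
Mean methylation level (percent) of positions in 4 bins of distance from the transcription start, for the 4 genes (red) and all promoter windows (grey). Bars are means, error bars the SD of the 5 lines (cut at 0) and points the single lines. At these common positions the level falls from 10.2% within 250 bp (all 4 genes) to 0.668% beyond 1000 bp (Taf7l only). All promoters reach 4.72% there, or 1.77% at positions under 1% in round spermatids (not drawn). The high point from 250 to 500 bp is WT replicate 1 at Mael.

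The gene body could be compared with the promoter in all libraries at Asz1 only. Its 4 common positions lie 45.7 kb downstream, between 18063327 and 18063361 on chromosome 6, and exon or intron was not assigned. For the body, WT lines showed 43.3% and 1.65%, and DKO lines 0%, 37.4% and 36.3%. Round spermatids had 100% over 3092 reads. The mean of the lines was 23.7% ± 21.1 (SD, n = 5), with 3 lines between 36.3% and 43.3% and the other 2 at 1.65% or lower. Body positions at 45662, 45638 and 45626 bp had no reads in DKO replicate 1 and 7 in round spermatids. There DKO replicate 3 had 0.291%, 0.872% and 0.291%, and DKO replicate 2 had 26.7%, 1.37% and 1.37%. WT replicate 1 had 28.9%, 57.3% and 6.87%, and WT replicate 2 at most 2.49%. The body levels of the lines therefore describe the 4 common positions only. By the rule of size 70.1% of the 4715 gene bodies measured were higher in round spermatids, with medians of 79.9% there and 13.7% in the lines, so Asz1 falls on the common side.

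Line by line, the Asz1 promoter level minus the gene body level came to -36.8 and 9.30 points for the WT lines, to 12.9, -28.4 and -9.60 for the DKO lines, and to -100.0 for round spermatids. The promoter was the less methylated region in round spermatids and 3 lines, and the more methylated one in WT replicate 2 and DKO replicate 1. The mean gap of the lines was -10.5 ± 22.1 points (SD, n = 5). Within the body, levels also differed from position to position. At its position 45734 bp downstream the WT lines had 73.1% and 0.132% and the DKO lines 0%, 62.1% and 16.9%, and at 45700 bp the WT lines had 99.9% and 0% and the DKO lines 0%, 19.4% and 65.0%. The positions between them had 0.107% and 6.05% (45724 bp) and 0.107% and 0% (45708 bp) in the WT lines, against 0%, 13.9% and 38.9%, then 0%, 57.8% and 24.5%, in the DKO lines. Round spermatids were at 100% at all 4 positions, and DKO replicate 1 at 0 at all 4.

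**Figure D4:**
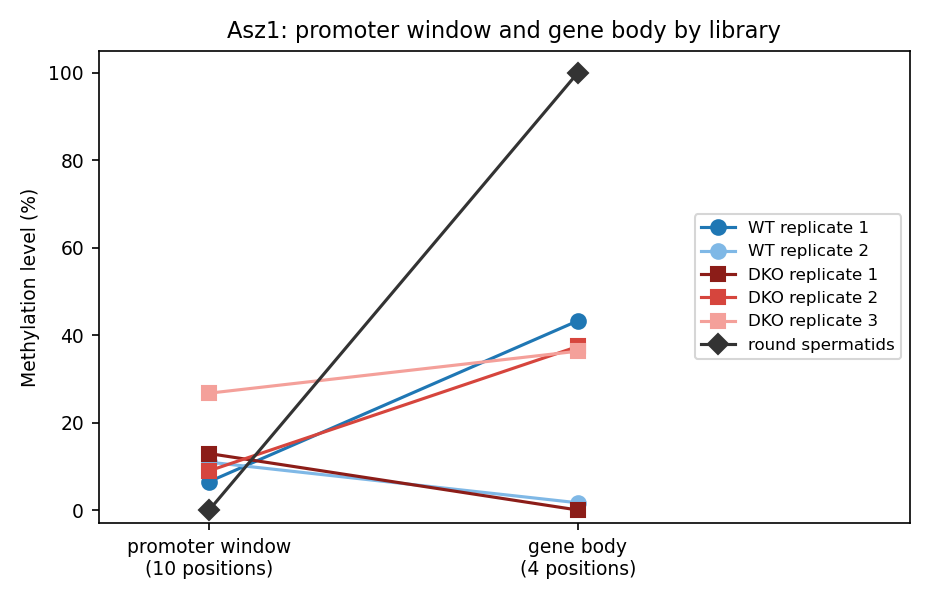
Methylation level (percent) of the Asz1 promoter window (10 positions) and gene body (4 positions) in each library, joined by a line per library. Round spermatids go from 0.0219% to 100%, 3 lines go up to between 36.3% and 43.3%, and WT replicate 2 and DKO replicate 1 go down to 1.65% and 0%.

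For Dazl, Mael and Taf7l no gene body position had 10 reads in all 6 libraries, so their bodies could not be compared between libraries. Single libraries gave a few values. In Dazl, round spermatids had 100% on 14 reads at 50282345 and DKO replicate 1 had 0% on 12 reads at 50285122. In Mael, DKO replicate 2 had 100% at 166205853 and 0% at 166205855, on 78 reads each, and DKO replicate 3 had 0% on 22 reads at 166209907. In Taf7l, WT replicate 1 had 0%, 100%, 100% and 0% on 35 reads each at 134461034, 134461045, 134461059 and 134461070.

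DKO and WT lines were compared next, a contrast that did not enter the choice of the genes. The quasi-likelihood test of edgeR over all promoter windows, with adjustment by Benjamini-Hochberg, called 0 of 11250 tested (0%), with 301 at an unadjusted p under 0.05. An alternative limma test also called 0. At Dazl the WT lines averaged 12.6% ± 11.9 (SD, n = 2) and the DKO lines 8.62% ± 4.35 (SD, n = 3), which puts DKO minus WT at -4.03 points with an edgeR adjusted p of 0.991. Mael averaged 4.89% ± 4.93 (SD, n = 2) against 3.27% ± 4.18 (SD, n = 3), or -1.62 points with an edgeR adjusted p of 0.991. Asz1 and Taf7l had the same adjusted p of 0.991 from edgeR. Asz1 was higher in DKO, with 16.2% ± 9.32 (SD, n = 3) against 8.73% ± 3.14 (SD, n = 2), a difference of 7.47 points. Taf7l had 6.77% ± 1.08 (SD, n = 3) in DKO against 9.82% ± 7.86 (SD, n = 2), or -3.05 points, but its direction turned to 6.57 points with a minimum of 30 reads, 8.33 in 1 kb windows and 11.4 in 500 bp windows.

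Two-sided exact permutation tests of the 10 splits of the lines, whose smallest possible p is 0.1, gave p = 0.8 for Dazl, Mael and Taf7l and p = 0.4 for Asz1. WT and DKO values overlapped at all 4 genes, while 18.2% of the 11671 windows had groups that did not overlap. The Dazl, Mael and Taf7l differences turned positive when 1 line was left out: Dazl 4.39 points without WT replicate 1, Mael 1.87 without WT replicate 2 and 0.00976 without DKO replicate 1, and Taf7l 2.51 without WT replicate 1. Over gene bodies edgeR called 0 of 4682 (0%), with 73 at an unadjusted p under 0.05 and 0 called by limma. The Asz1 body averaged 22.5% ± 29.4 (SD, n = 2) over the WT lines and 24.6% ± 21.3 (SD, n = 3) over the DKO lines, which differ by 2.11 points with an edgeR adjusted p of 1. Without WT replicate 2 that difference was -18.7 points. The Asz1 gap between promoter and body was -13.7 points in WT and -8.37 in DKO lines, with a two-sided exact permutation p of 0.8.

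Of a wider list of 58 germline genes, 20 had a measured promoter. Brdt, a bromodomain protein gene of spermatogenesis, was called lower in round spermatids, where it had 0.0417%, against 0.0990% and 14.2% for the WT lines and 0.0786%, 13.2% and 21.3% for the DKO lines. Zcwpw1, a meiotic histone reader gene, was called higher there, with 6.26% against 0.0344% ± 0.0536 (SD, n = 5) in the lines. Over all windows the rule called 1.2% lower and 6.67% higher in round spermatids. The list's median difference between lines and round spermatids was 0.619 points, against 0.00708 over all windows, and edgeR called 0 of its 20 genes between DKO and WT. The list was chosen with earlier results of these data known, so nothing is read from its median or its calls against round spermatids. Stra8, a retinoic acid response gene needed to start meiosis, had 85.5% and 0% in the WT lines, 0%, 5.92% and 22.1% in the DKO lines and 0 in round spermatids, so its mean of 22.7% rests mostly on 1 line. Tuba3b, a testis alpha-tubulin gene with a near-identical copy that can make its reads uncertain, averaged 22.1% ± 30.04 (SD, n = 5) and Rpl10l, a ribosomal protein gene of spermatogenesis, 7.31% ± 9.92 (SD, n = 5), against 0 and 2.11% in round spermatids. Next below Mael in mean level were Slc25a31 at 2.58% and Ddx4 at 1.89%, while Dazap1, an RNA-binding protein gene active in many tissues, had 7.85% in WT replicate 1 and at most 0.0673% in the other lines.

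For each member the promoters with the most similar levels over the 6 libraries were found by the mean absolute difference in percentage points among 11667 windows. They were LOC108167751 (2.40), Tuba8 (2.44) and Rccd1 (2.72) for Dazl, and Cfap43 (0.592) and the shared window of Methig1 and Mettl7a2 (0.853) for Mael. For Asz1 they were Gm33636 and Hdac7, which share their positions (2.62), and D1Pas1 (3.39), and for Taf7l they were Fut1 (1.18), Twist2 (1.22) and Ccdc159 (1.30). Cfap43, picked for this likeness, had 1.47% and 7.77% in the WT lines and 0%, 8.63% and 0.0405% in the DKO lines.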

How the data were processed

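The labels' protocols describe MspI digestion, methylated adapters, size selection on a gel, bisulfite treatment and PCR. Bismark 0.12.2 and the build mm10 are named in the submitters' processing notes. How reads were trimmed, whether duplicates were removed and which cytosine context was kept is not given in the sources used here. The deposited files hold counts of methylated and unmethylated reads per position and the level as a fraction, which was recomputed from the counts and expressed in percent.

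The 4 genes and all gene lists were chosen with earlier results of these data known. Starts and sequences came from RefSeq tables of GRCm38.p6 that matched all 4 genes. Gene lists match by symbol, and strand is not given for positions. Levels are summed methylated over summed reads at positions with at least 10 reads in all 6 libraries, in windows with at least 3 such positions. A read counts at each cytosine it covers, and without molecular identifiers PCR copies of 1 molecule cannot be recognised, so intervals (95%, Wilson) and limits of 0 (3 counts) cover counting error only. Gene bodies run from 2 kb inside the start to the gene end.

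DKO and WT lines were tested with edgeR 4.0.16 (quasi-likelihood, common dispersion, a term per library, adjusted p under 0.05) in R 4.3.3, with limma 3.58.1 on log2((methylated + 1)/(unmethylated + 1)) as an alternative; windows without variation were not tested, and the edgeR fit was tested on simulated data. Round spermatids, with 1 library, were compared by a rule of size only. All 4 members were described, and other genes were named only where called, related by name, next below the members in level, or most similar, and Stra8, Tuba3b and Rpl10l were picked after their values were seen. Alternatives were the read minimum, window width, number of positions, weighting, test, a block by shared line name and leaving out each line.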

Additional observations from a re-analysis of the deposited data

Results flagged for a closer look

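Positions without 10 reads in every library did not enter the comparisons. Of these, 56 promoter and gene body positions had at least 10 reads in round spermatids. In 12 of the 56, all in promoter windows, 1 line lay at least 25 points above the round spermatid level. Every other line with at least 10 reads at such a position was at 0%, so these are values of single lines. In Dazl, the position 461 bp from the start had 26.8% on 355 reads in WT replicate 1 against 0% in round spermatids. At 265 and 263 bp DKO replicate 3 had 100% on 170 reads, where round spermatids had 0% on 13 reads. DKO replicate 2 had 97.0% at 234 bp on 99 reads, and 39.0%, 39.0% and 39.2% at 221, 205 and 194 bp on 254, 254 and 255 reads, against at most 0.209% in round spermatids. These lie farther downstream than the last Dazl position that reached 10% in a line among those measured in all libraries, at 153 bp.

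In Asz1, DKO replicate 1 had 57.1% on 14 reads at 94 and at 70 bp, DKO replicate 3 had 86.7% on 15 reads at 79 bp, and DKO replicate 2 had 25.4% on 631 reads at 32 bp, with 0% in round spermatids at each. In Taf7l, DKO replicate 2 had 63.9% on 61 reads at 254 bp against 0% on 331 reads in round spermatids.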

How the results depend on the processing

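The gap between lines and round spermatids kept its direction for all 4 promoters and the Asz1 body under every alternative run. At Taf7l it moved from 7.99 points to 16.9 with a minimum of 30 reads, 19.5 in 1 kb windows and 23.3 in 500 bp windows, which hold fewer of its distant positions. Leaving out each line gave 7.49 to 11.7 points for Dazl, 2.16 to 4.24 for Mael, 9.82 to 14.9 for Asz1 and 6.15 to 8.92 for Taf7l, -81.2 to -70.3 for the Asz1 body and -16.4 to -3.95 for its promoter minus body. Windows lower in round spermatids numbered 140 (131 to 204 without 1 line, 67 in 500 bp windows), and higher 779 (785 to 813, 381 in 1 kb and 240 in 500 bp windows).

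Between DKO and WT lines edgeR called 1 promoter in 500 bp windows. With the replicate block by shared line name it called 26 (15 higher and 11 lower in DKO) with 0 gene bodies, and the members' adjusted p was 1; this fit leaves 1 residual degree of freedom, and names shared in titles are not stated to pair lines. The block turned Mael to 0.15 on the log2 odds scale. Without 1 line, DKO minus WT ran from -12.4 to 4.39 points for Dazl, -5.10 to 1.87 for Mael (0.00976 without DKO replicate 1), 2.22 to 11.1 for Asz1, -8.60 to 2.51 for Taf7l, and -18.7 to 22.9 for the Asz1 body (-4.30 without DKO replicate 2, -3.76 without DKO replicate 3). Taf7l turned to 6.57 with 30 reads, 8.33 in 1 kb and 11.4 in 500 bp windows, and the Asz1 body to -0.33 in limma on its log2 scale; the cause was not tested. Depth limits Taf7l most, where WT replicate 1 had as few as 11 reads at a position.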
